A study of Homo sapiens with 38 samples.

Results

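The 10 genes described here belong to the BCL2 family of apoptosis regulators, and they were taken by gene symbol from the 12627 genes of the measured table. They comprise the effectors BAK1 and BAX, the BH3-only genes BIK, BCL2L11, BID, BBC3, PMAIP1 and BMF, and the guardians BCL2L1 and MCL1. All 10 were measured in every library used, and no further filter on low values was applied. The measured table itself lists no gene with fewer than 37 reads over the 38 libraries together. Shares of all genes given below are thus shares of the listed genes. The proteins of this family meet at the outer mitochondrial membrane. Guardians such as BCL-XL, the product of BCL2L1, and MCL1 hold the effectors BAK and BAX in check, and BH3-only proteins bind guardians or engage effectors directly. Once freed, the effectors open pores through which cytochrome c leaves the mitochondrion, and caspases are then activated in the cytosol. In colorectal carcinoma cells the guardians are well-known survival factors.

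The study silenced the ESCRT ATPases VPS4A and VPS4B, alone and together, in HCT116, a human colorectal carcinoma cell line, and asked how the loss of either or both changes the transcriptome. RNA was read with a targeted amplicon panel (Ion AmpliSeq), which counts reads per gene and cannot tell the splice isoforms of BCL2L1, MCL1 or BCL2L11 apart. The cells of 8 conditions were transfected with siRNA by lipofection (RNAiMAX) and collected 72 h later. NT cells were not transfected, and siCTRL#1 cells received 60 nM of a non-targeting duplex.

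siCTRL#2 cells received another non-targeting duplex, whose dose the labels do not give. The singly silenced cells, siVPS4A#1, siVPS4A#2, siVPS4B#1 and siVPS4B#2, received 30 nM of the on-target duplex with 30 nM of siCTRL#1. The doubly silenced cells received 30 nM of each on-target duplex. siVPS4A+B#1 paired siVPS4A#2 with siVPS4B#1, and siVPS4A+B#2 paired siVPS4A#1 with siVPS4B#2. There were 5 libraries each of siCTRL#1 and siVPS4A#1, of which 4 of siVPS4A#1 were used, and 4 of each other condition, which the series calls biological replicates. The series names NT and siCTRL#1 as its reference samples.

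The 37 libraries used held between 5090666 and 11035293 reads, with a median of 7561496. Levels are given in RPM (reads relative to the size of the library), scaled between libraries by TMM (trimmed mean of M-values), as mean ± SD. They are not compared between genes, because amplicons differ in yield. A count of 3 reads, the upper limit that a count of 0 allows, was at most 0.589 RPM in any of these libraries, which covers counting error only, as PCR reads without molecular identifiers are not independent molecules. Changes are log2 fold changes from limma, fitted over all 12627 genes in all 9 conditions with the replicate number as a block. A gene was called when its fold was at least 1.5 and its adjusted p was under 0.05. A pseudocount of 1 RPM was added before the logarithm, so a fold understates the change of a gene with a low level. The NT and siCTRL#1 libraries are shared by every comparison made against them.

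1 more library, labelled siVPS4A#1 replicate 2, went against its label and was left out. It held 669257 reads, and VPS4B, which its label leaves untouched, had 1 read in it, or 1.62 RPM. VPS4A had 7 reads. In the 4 other siVPS4A#1 libraries VPS4B was at 26.1 ± 4.49 RPM (SD, n = 4). Each result that rests on siVPS4A#1 is given below with and without this library where the call differs.

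Epithelial markers of the line were present. 7 of 12 colorectal epithelial markers were among the listed genes, the most abundant being KRT19, and they summed to 4480 ± 113 RPM in NT cells (SD, n = 4). CDX1, VIL1, GPA33, LGALS4 and CEACAM5 were not listed, and KRT20 was near the counting floor, at 0.548 ± 0.191 RPM in NT cells (SD, n = 4). Of 6 leukocyte markers only CD68, which encodes a lysosomal membrane protein also made outside leukocytes, was listed. Of 6 fibroblast and endothelial markers COL1A1, PDGFRB and PECAM1 were listed, the last 2 near the floor in NT cells.

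Both targets were silenced. VPS4A (listed as NM_013245, GRCh37 chromosome 16, 69345253 to 69360842, plus strand) was at 325, 201, 250 and 218 RPM in NT cells and at 198, 173, 180, 192 and 207 in siCTRL#1 cells. It was at 2.18 ± 0.895 in siVPS4A#1 cells, 7.88 ± 2.22 in siVPS4A#2 cells, 20 ± 10.6 in siVPS4A+B#1 cells and 5.03 ± 1.96 in siVPS4A+B#2 cells (SD, n = 4 each). The remaining VPS4A message thus differed between the pairs, from 10.6 to 33.9 RPM in siVPS4A+B#1 libraries and from 3.05 to 7.69 in siVPS4A+B#2 libraries. VPS4B (listed as NM_004869, chromosome 18, 61056423 to 61089716, minus strand) was at 22.2 ± 5.44 in NT cells (SD, n = 4) and 20.7 ± 3.54 in siCTRL#1 cells (SD, n = 5). It was at 0.433 ± 0.335 in siVPS4B#1 cells, 1.07 ± 0.361 in siVPS4B#2 cells, 0.538 ± 0.331 in siVPS4A+B#1 cells and 1.28 ± 0.315 in siVPS4A+B#2 cells (SD, n = 4 each).

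Double silencing was compared with NT and with siCTRL#1 to ask what the loss of both ATPases does. BAK1, BIK, BCL2L11 and PMAIP1 rose in all 4 of these comparisons, an effector and 3 BH3-only genes. Among all genes, 3.96% were higher in all 4. No member fell in all 4 with limma, none had an unadjusted p under 0.05 in all 4 in that direction, and DESeq2 and edgeR also gave 0, while 4.16% of all genes were lower in all 4. In siVPS4A+B#1 cells 6 of 10 members were called against NT, 5 higher and 1 lower (26.0% of all genes were called), and 7 against siCTRL#1, 5 higher and 2 lower (22.1% of all genes). In siVPS4A+B#2 cells 8 were called against NT, all higher (28.8% of all genes), and 6 against siCTRL#1, all higher (28.7% of all genes).

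The median log2 fold change of the 10 members was 0.7, 0.47, 1.22 and 0.96 in these 4 comparisons, in the order just given, where the median of all genes was -0.04, -0.02, -0.03 and -0.02. When libraries were scaled by their totals alone, the median of all genes moved to -0.12, -0.16, -0.08 and -0.13, and BCL2L11 was then no longer called in siVPS4A+B#1 against siCTRL#1. Against the second non-targeting duplex, siCTRL#2, 5 members were called in siVPS4A+B#1 cells, all higher (26.9% of all genes), and 8 in siVPS4A+B#2 cells, all higher (32.6% of all genes). BAK1, BIK, BCL2L11 and PMAIP1 were among them in both.

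**Figure D1:**
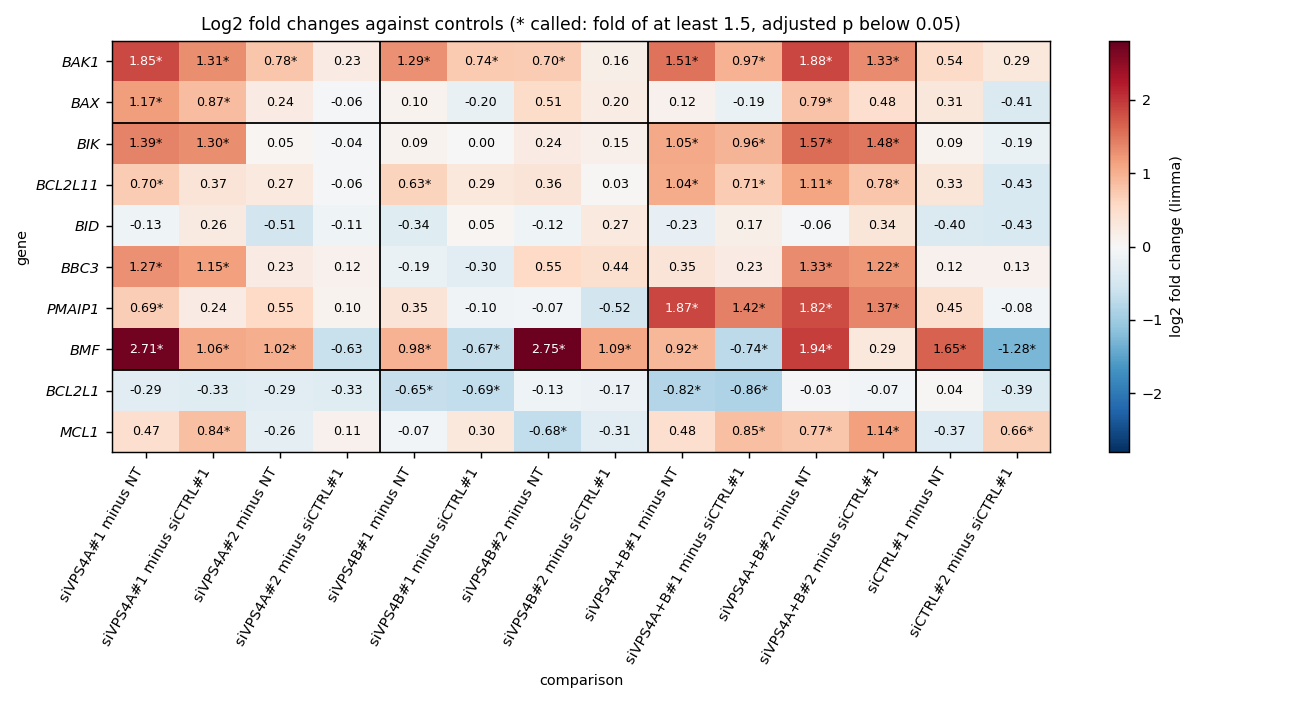
Log2 fold changes from limma of the 10 BCL2 family genes (rows, grouped as effectors, BH3-only genes and guardians) in 14 comparisons against controls (columns), with colour from blue (lower) to red (higher) and a star on each called value. BAK1, BIK, BCL2L11 and PMAIP1 carry a star in all 4 columns of double silencing, PMAIP1 with values from 1.37 to 1.87.

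Single silencing was compared with the same controls to ask what each ATPase does alone. After siVPS4A#1, 7 members were called against NT, all higher (25.0% of all genes were called), and 6 against siCTRL#1, all higher (22.0% of all genes). With the library that was left out these counts were 6 and 6. After siVPS4A#2, 2 members were called against NT, both higher (8.15% of all genes). Against siCTRL#1 none was called by limma, with 2 at an unadjusted p under 0.05, and DESeq2 and edgeR gave 0 as well (0.0871% of all genes).

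After siVPS4B#1, 4 members were called against NT, 3 higher and 1 lower (22.3% of all genes), and 3 against siCTRL#1, 1 higher and 2 lower (12.9% of all genes). Without replicate 1, dropped from all conditions, the count of 4 became 1. After siVPS4B#2, 3 members were called against NT, 2 higher and 1 lower (15.5% of all genes), and 1 against siCTRL#1, which was higher (7.57% of all genes). Without replicate 4 these became 5 and 2, and the second was also 2 without the siCTRL#1 library of replicate 4. The medians of the 10 members over these 8 comparisons ran from -0.05 to 0.94, against 0 to 0.01 for all genes.

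The effector BAK1 (listed as NM_001188, GRCh37 chromosome 6, 33540324 to 33548070, minus strand) encodes BAK, which sits in the outer mitochondrial membrane and forms pores there. It was at 29.6, 22.1, 30 and 22.2 RPM in NT cells and at 41.8, 30.7, 48.1, 36.3 and 32.4 in siCTRL#1 cells. It reached 90.8, 80.3, 77.4 and 55.8 in siVPS4A+B#1 cells and 119, 102, 85.7 and 84.8 in siVPS4A+B#2 cells. Every doubly silenced library lay above every NT and siCTRL#1 library. The log2 fold change was 1.51 against NT and 0.97 against siCTRL#1 in siVPS4A+B#1 cells, and 1.88 and 1.33 in siVPS4A+B#2 cells, with limma adjusted p of at most 3.62e-07.

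BAK1 rose after single silencing too. It was at 85.4, 107, 92 and 96.3 RPM in siVPS4A#1 cells, as high as in doubly silenced cells, and at 68.8, 57.4, 75.2 and 57 in siVPS4B#1 cells. These libraries were all above the NT and siCTRL#1 libraries, and the log2 fold changes against siCTRL#1 were 1.31 (limma adjusted p = 1.96e-10) and 0.74 (limma adjusted p = 6.82e-05). With the library that was left out, the siVPS4A#1 value was 1.19. The siVPS4A#2 libraries, at 38.1, 49.4, 46.5 and 45.6, and the siVPS4B#2 libraries, at 50.6, 36.9, 51.1 and 34.1, overlapped the siCTRL#1 libraries. They were called against NT alone, by 0.78 and 0.70. siCTRL#1 cells themselves were 0.54 above NT cells (limma adjusted p = 0.00431), a fold of 1.46 that was not called, though it was at 0.61 with scaling by library totals.

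The promoter of BAK1 is shown because this gene rose in all 4 comparisons of double silencing with NT and siCTRL#1. It is the RefSeq promoter at chr6:33580227-33580526 of GRCh38.p14, minus strand, 250 bases before to 50 bases after the start of the gene. The capitals mark a match to the 10-letter unit of the p53 response element, of which a full element holds 2. Its first base lies 73 bases before the start. Such a match is in 6.63% of all 35114 promoters, on either strand, and is a description of letters only.
BAK1 promoter: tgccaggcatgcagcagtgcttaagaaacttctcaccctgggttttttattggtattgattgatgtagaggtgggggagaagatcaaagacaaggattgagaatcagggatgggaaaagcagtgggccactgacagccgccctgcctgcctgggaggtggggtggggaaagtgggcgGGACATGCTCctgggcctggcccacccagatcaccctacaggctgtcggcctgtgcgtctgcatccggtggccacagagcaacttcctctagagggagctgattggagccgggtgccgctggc

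The effector BAX (listed as NM_004324, GRCh37 chromosome 19, 49458072 to 49465055, plus strand), whose protein moves from the cytosol to mitochondria when activated, followed the duplex used. It was at 61.4, 81, 83.5 and 88.5 RPM in NT cells and at 91.4, 78.1, 127, 93.7 and 78 in siCTRL#1 cells. It was at 166, 245, 140 and 137 in siVPS4A#1 cells, all above both controls, with a log2 fold change of 0.87 against siCTRL#1 (limma adjusted p = 2.36e-05) and 0.63 with the library that was left out. In siVPS4A+B#2 cells, which share that duplex, it was at 142, 116, 142 and 144. That was 0.79 above NT (limma adjusted p = 0.000133) and 0.48 above siCTRL#1, the latter not called but 0.61 and called without replicate 3. In siVPS4A+B#1 cells, at 93.7, 75.1, 89.6 and 81, it overlapped both controls, with log2 fold changes of 0.12 and -0.19. The siVPS4B#2 libraries ran from 73.8 to 139, 0.51 above NT, which was 0.76 and called without replicate 4.

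PMAIP1 (listed as NM_021127, GRCh37 chromosome 18, 57567228 to 57571537, plus strand) encodes NOXA, a BH3-only protein that binds MCL1. It set the doubly silenced cells apart from all others. It was at 217, 170, 123 and 103 RPM in NT cells and at 218, 189, 209, 191 and 177 in siCTRL#1 cells. It was at 648, 435, 509 and 605 in siVPS4A+B#1 cells and at 488, 602, 489 and 517 in siVPS4A+B#2 cells. The lowest doubly silenced library, at 435, stood above the highest of all other libraries used, at 315.

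The log2 fold change of PMAIP1 was 1.87 against NT and 1.42 against siCTRL#1 in siVPS4A+B#1 cells, and 1.82 and 1.37 in siVPS4A+B#2 cells, with limma adjusted p of at most 9.09e-09. In the order of the means, siVPS4B#2 (141 ± 16.4) came first, then NT (153 ± 50.7), siVPS4B#1 (190 ± 29.3), siCTRL#2 (193 ± 40.6), siCTRL#1 (197 ± 16.3), siVPS4A#2 (218 ± 34.6) and siVPS4A#1 (231 ± 56.2), where each neighbour overlapped the next. After a gap came siVPS4A+B#2 (524 ± 53.5) and siVPS4A+B#1 (549 ± 95.8), which overlapped each other (SD, n = 4, and 5 for siCTRL#1). PMAIP1 was the only gene of the 10 that was called higher in both doubly silenced conditions against each of their single silencings.

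Among the single silencings PMAIP1 was called once, in siVPS4A#1 cells against NT (0.69, limma adjusted p = 0.00186), where the libraries overlapped. The siVPS4A#1 libraries were at 191, 212, 315 and 207 RPM. Without replicate 4, which drops the highest siVPS4A#1 library (315) and the lowest NT library (103) together, the change was 0.35 (limma adjusted p = 0.147). It was 0.97 with the library that was left out, in which PMAIP1 was at 579, and 0.74 (limma adjusted p = 0.0555) when only the compared conditions were fitted. siVPS4A#2 and siCTRL#1 cells were 0.55 and 0.45 above NT cells, neither called, and 0.71 and 0.62, both called, without replicate 1, whose NT library was the highest. The siVPS4B#2 libraries lay below all siCTRL#1 libraries, a change of -0.52 (limma adjusted p = 0.0298) that was not called.

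The PMAIP1 promoter is shown because its gene alone rose with double over each single silencing. It lies at chr18:59899746-59900045 of GRCh38.p14, plus strand, in RefSeq. The capitals mark TGACG, the core of the cyclic AMP response element (CRE), here as its reverse complement with its first base 55 bases before the start. TGACG is in 24.6% of all promoters and the full CRE, TGACGTCA, which contains it, in 1.85%.
PMAIP1 promoter: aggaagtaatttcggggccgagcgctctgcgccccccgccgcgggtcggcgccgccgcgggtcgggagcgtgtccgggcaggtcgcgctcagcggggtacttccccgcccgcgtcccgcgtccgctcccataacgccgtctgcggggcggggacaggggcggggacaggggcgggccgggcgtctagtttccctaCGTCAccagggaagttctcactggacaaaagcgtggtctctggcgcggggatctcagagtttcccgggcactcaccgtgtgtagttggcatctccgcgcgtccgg

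BIK (listed as NM_001197, GRCh37 chromosome 22, 43506756 to 43525718, plus strand) encodes a BH3-only protein found mainly at the endoplasmic reticulum. It was at 17.2, 18.6, 22.6 and 13.9 RPM in NT cells and at 15.5, 26.8, 18.5, 16.5 and 25.6 in siCTRL#1 cells. It was at 44.8, 34.8, 35.1 and 38.5 in siVPS4A+B#1 cells, 41.3, 67.5, 46.9 and 68.4 in siVPS4A+B#2 cells and 46, 42.7, 51.8 and 60.6 in siVPS4A#1 cells. These 3 conditions lay wholly above the other 6, whose highest library was at 26.8. The log2 fold change against NT and siCTRL#1 was 1.05 and 0.96 in siVPS4A+B#1 cells and 1.57 and 1.48 in siVPS4A+B#2 cells, with limma adjusted p of at most 3.65e-05. In siVPS4A#1 cells it was 1.39 and 1.30, or 1.23 and 1.16 with the library that was left out. After siVPS4A#2, siVPS4B#1 and siVPS4B#2 the changes ran from -0.04 to 0.24, none of them called.

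BCL2L11 (listed as NM_138621, GRCh37 chromosome 2, 111876955 to 111926021, plus strand) encodes BIM, a BH3-only protein that binds all guardians. It was at 14.5, 16.7, 13.8 and 16.7 RPM in NT cells and at 22.6, 24.4, 16.9, 18.5 and 19.2 in siCTRL#1 cells. It was at 42.1, 35.1, 26.2 and 29 in siVPS4A+B#1 cells and at 41.6, 38.6, 23.7 and 36.6 in siVPS4A+B#2 cells. All of these were above NT, and replicate 3 of siVPS4A+B#2 lay among the siCTRL#1 libraries. The log2 fold change against NT and siCTRL#1 was 1.04 and 0.71 in siVPS4A+B#1 cells and 1.11 and 0.78 in siVPS4A+B#2 cells, with limma adjusted p of at most 8.68e-05. The value of 0.71 was 0.53 with scaling by library totals (limma adjusted p = 0.00309), a fold under 1.5.

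Single silencing gave fewer calls of BCL2L11. Against NT it was called in siVPS4A#1 cells (0.70, limma adjusted p = 0.000223), at 24.3, 17.7, 29.4 and 34.3 RPM, and in siVPS4B#1 cells (0.63, limma adjusted p = 0.000536), at 25, 28.5, 19.7 and 24.7. Both conditions overlapped siCTRL#1, against which neither was called, with changes of 0.37 and 0.29. The calls against NT were lost with the library that was left out (0.58) and without replicate 1 (0.58), in that order.

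The BCL2L11 promoter is shown as that of the other BH3-only gene raised in all 4 comparisons for which a promoter was available. It lies at chr2:111120664-111120963 of GRCh38.p14, plus strand, in RefSeq. The capitals mark GTAAACA, the forkhead (FOXO) motif, with its first base 223 bases before the start, and 3.42% of all promoters hold it.
BCL2L11 promoter: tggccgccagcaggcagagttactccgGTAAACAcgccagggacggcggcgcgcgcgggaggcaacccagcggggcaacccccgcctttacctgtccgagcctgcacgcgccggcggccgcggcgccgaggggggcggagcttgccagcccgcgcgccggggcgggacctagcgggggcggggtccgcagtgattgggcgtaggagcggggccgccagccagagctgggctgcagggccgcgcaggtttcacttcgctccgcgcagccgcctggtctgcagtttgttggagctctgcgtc

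BBC3 (listed as NM_001127240, GRCh37 chromosome 19, 47724079 to 47736023, minus strand) encodes PUMA, a BH3-only protein and a well-known p53 target. It was at 18.2, 17.2, 11.1 and 11.1 RPM in NT cells and at 14.6, 15.3, 13.2, 19.3 and 12.2 in siCTRL#1 cells. It rose in siVPS4A#1 cells, to 33.7, 36.2, 35 and 30.7, and in siVPS4A+B#2 cells, to 39.1, 38.9, 41 and 29.8. These 8 libraries lay above every library of the other 7 conditions. The log2 fold change against siCTRL#1 was 1.15 (limma adjusted p = 8.58e-06) and 1.22 (limma adjusted p = 3.31e-06), and the first was 1.02 with the library that was left out. In siVPS4A+B#1 cells, at 27.3, 12, 15.3 and 21.2, the change was 0.35 against NT and 0.23 against siCTRL#1. The first was 0.62 and called without replicate 2. In siVPS4B#2 cells the change was 0.55 against NT and 0.44 against siCTRL#1, neither called, but 0.70 and 0.78 without replicate 4, and the second was 0.61 without the siCTRL#1 library of replicate 4. The call against NT was made by DESeq2 (0.61) and edgeR (0.60).

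BMF (listed as NM_001003940, GRCh37 chromosome 15, 40380091 to 40401093, minus strand), a BH3-only gene whose protein is held by a dynein light chain of the myosin V motor, differed among the controls themselves. It was at 4.56, 6.17, 6.46 and 4.26 RPM in NT cells, at 25.3, 15.6, 15.7, 21.1 and 11.8 in siCTRL#1 cells and at 8.94, 9.21, 5.51 and 5.56 in siCTRL#2 cells. The siCTRL#1 libraries lay above all of both other controls. The change was 1.65 for siCTRL#1 against NT (limma adjusted p = 5.74e-06) and -1.28 for siCTRL#2 against siCTRL#1 (limma adjusted p = 7.37e-05).

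The sign of the BMF change differed between NT and siCTRL#1 as control in siVPS4A#2, siVPS4B#1 and siVPS4A+B#1 cells, and was positive against both in the other 3 silenced conditions. Against NT it was called higher in all 6 silenced conditions. It was highest in siVPS4B#2 cells, at 94.9, 39.9, 29.9 and 25.2, and in siVPS4A#1 cells, at 42.1, 41.5, 32.3 and 29, which were 1.09 (limma adjusted p = 0.00195) and 1.06 (limma adjusted p = 0.000461) above siCTRL#1. The siVPS4A+B#2 libraries, at 28.1, 28.4, 14.6 and 24.8, were 1.94 above NT and 0.29 above siCTRL#1, the latter not called. The siVPS4A+B#1 libraries, at 12.3, 10.5, 8.35 and 12.9, were 0.92 above NT (limma adjusted p = 0.00294), while the change against siCTRL#1 was -0.74 (limma adjusted p = 0.0155), with an overlap between the libraries.

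Several calls of BMF were lost under alternatives. The change of -0.74 was -0.67 (limma adjusted p = 0.0827) without replicate 3 and -0.62 (limma adjusted p = 0.0625) without the siCTRL#1 library of replicate 4. In siVPS4B#1 cells, at 23.5, 11.8, 9.6 and 6.18, BMF was 0.98 above NT, or 0.59 (limma adjusted p = 0.0509) without replicate 1. Against siCTRL#1 it was at -0.67 (limma adjusted p = 0.0415) in those cells. That call was lost without replicate 2 (-0.75), replicate 3 (-0.65), replicate 4 (-0.38) or the siCTRL#1 library of replicate 4 (-0.56), and with DESeq2 (-0.66) and edgeR (-0.65). Neither of these calls against siCTRL#1 held without the replicate block, at -0.63 and -0.56, or with the library that was left out in the fit, at -0.68 and -0.63.

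BID (listed as NM_001196, GRCh37 chromosome 22, 18216904 to 18257536, minus strand), whose product links death receptors to mitochondria once caspase-8 cuts it, was called in none of the comparisons with NT or siCTRL#1. Its condition means ran from 14.2 ± 1.89 RPM in siCTRL#2 cells to 26 ± 3.71 in NT cells (SD, n = 4 each). In the 12 comparisons of silenced cells with NT or siCTRL#1 its log2 fold changes ran from -0.51 to 0.34, with no call by limma, DESeq2 or edgeR. The value of -0.51, in siVPS4A#2 cells against NT, was -0.63 and called without replicate 4. Against siCTRL#2, its lowest condition, BID was called in siVPS4A+B#1 cells (0.60, limma adjusted p = 0.000668) and in siVPS4A+B#2 cells (0.76, limma adjusted p = 1.86e-05).

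The guardian BCL2L1 (listed as NM_138578, GRCh37 chromosome 20, 30252255 to 30311792, minus strand) fell against NT and siCTRL#1 with siVPS4B#1 and with the pair that contains it. It was at 748, 602, 662 and 594 RPM in NT cells and at 663, 666, 656, 704 and 690 in siCTRL#1 cells. It was at 351, 333, 404 and 382 in siVPS4A+B#1 cells and at 368, 384, 444 and 459 in siVPS4B#1 cells, all below every NT and siCTRL#1 library. The changes were -0.82 and -0.86 in siVPS4A+B#1 cells and -0.65 and -0.69 in siVPS4B#1 cells against NT and siCTRL#1, with limma adjusted p of at most 3.32e-05. Without replicate 1 the value of -0.65 was -0.53 and not called. In siVPS4A+B#2 cells, at 760, 644, 621 and 529, it overlapped both controls, with changes of -0.03 and -0.07. The siVPS4A#1 libraries, from 479 to 592, also lay below all of both controls, with changes of -0.29 and -0.33, neither called. The siVPS4A#2 and siVPS4B#2 libraries lay below all siCTRL#1 libraries, with changes of -0.33 and -0.17 against siCTRL#1, neither called. The second non-targeting duplex also gave lower values than siCTRL#1, at 464, 459, 593 and 535 in siCTRL#2 cells, a change of -0.39 that was not called (limma adjusted p = 0.0102). Against siCTRL#2 the change in siVPS4A+B#1 cells was -0.48 (limma adjusted p = 0.00131), a fold under 1.5 that was not called.

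The guardian MCL1 (listed as NM_021960, GRCh37 chromosome 1, 150533371 to 150552214, minus strand), a short-lived protein that restrains BAK, rose with double silencing in 3 of 4 comparisons. It was at 85.9, 89.1, 82 and 89.1 RPM in NT cells and at 77.6, 56.3, 63.5, 77.8 and 51.3 in siCTRL#1 cells. It was at 121, 106, 129 and 131 in siVPS4A+B#1 cells and at 156, 129, 216 and 110 in siVPS4A+B#2 cells, all above both controls. The change was 0.48 against NT (limma adjusted p = 0.00937), a fold of 1.4 that was not called, and 0.85 against siCTRL#1 in siVPS4A+B#1 cells. In siVPS4A+B#2 cells it was 0.77 and 1.14, the first of them 0.57 and not called without replicate 3.

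Among the single silencings MCL1 was called higher in siVPS4A#1 cells against siCTRL#1 (0.84, limma adjusted p = 1.09e-05), at 107, 119, 128 and 111 RPM, and 0.86 with the library that was left out. It was called lower in siVPS4B#2 cells against NT (-0.68, limma adjusted p = 0.000772), at 53.6, 68.5, 49 and 45.9. The second non-targeting duplex also raised it: at 106, 107, 105 and 105, the siCTRL#2 libraries lay above all NT and siCTRL#1 libraries, 0.66 above siCTRL#1 (limma adjusted p = 0.000613), or 0.58 and not called without replicate 2. Against siCTRL#2 the doubly silenced cells were at 0.19 and 0.48, neither called. In bulk RNA a change per cell and a change in which cells remain cannot be told apart, for MCL1 as for the other genes.

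**Figure D2:**
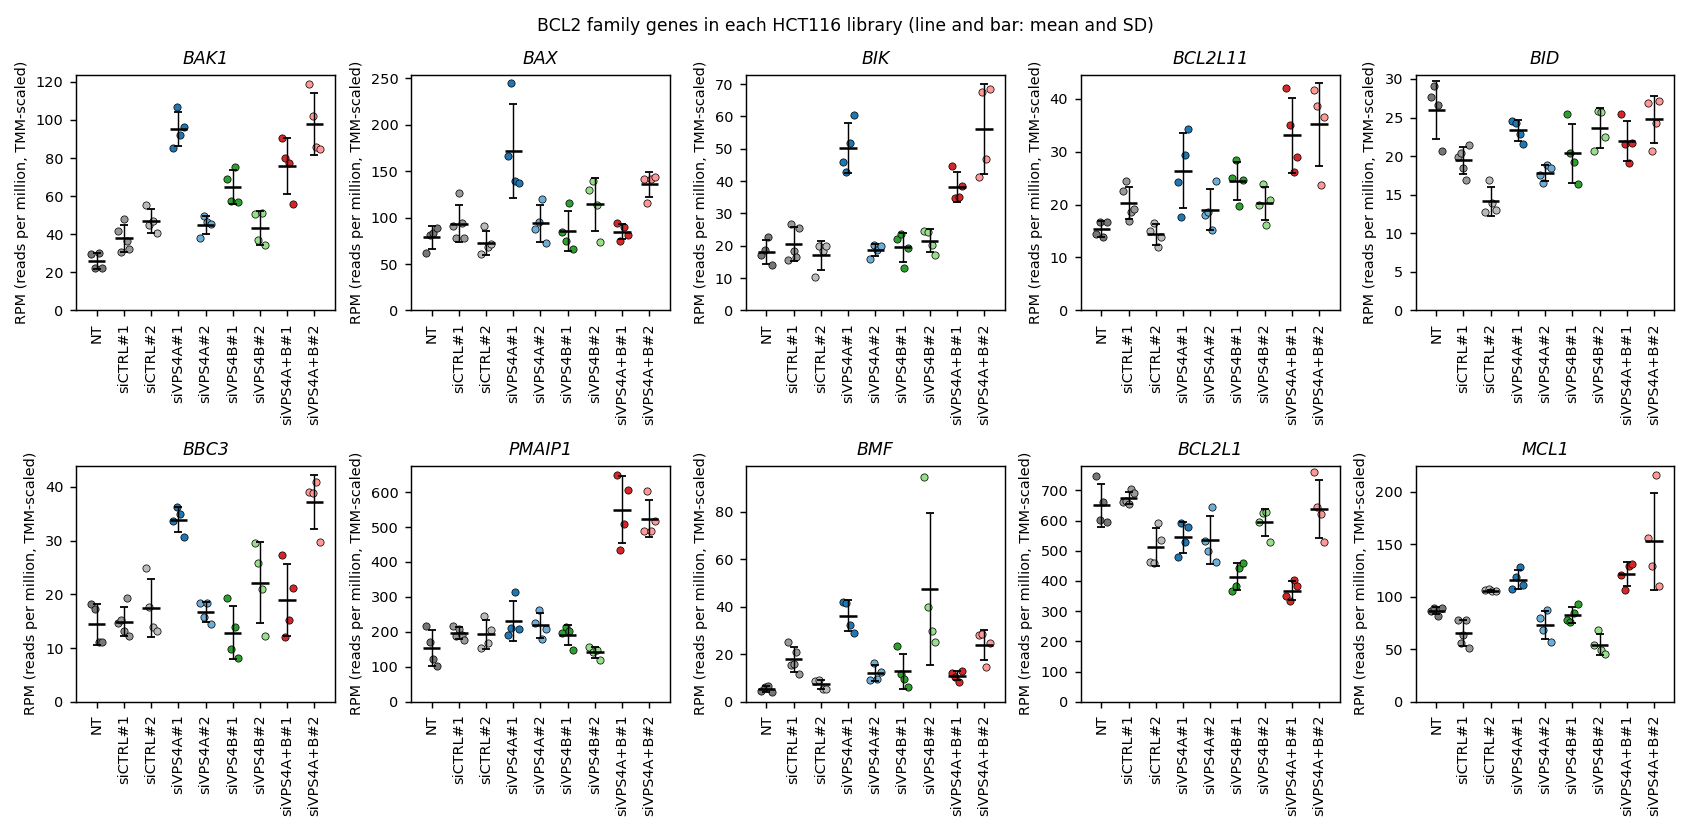
Level of each BCL2 family gene in RPM (TMM-scaled, each axis from 0) in each of the 37 libraries, by condition, with a line and bar for the mean and SD (n = 5 for siCTRL#1, 4 for the others). PMAIP1 lay between 435 and 648 in the 8 doubly silenced libraries and between 103 and 315 in the other 29, while BIK and BBC3 were also high in siVPS4A#1 cells.

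The controls were compared with each other to show how far they differed. siCTRL#1 against NT joins transfection with the effect of that duplex. siCTRL#2 against siCTRL#1 joins the choice of duplex with a dose that the labels do not give for siCTRL#2. Against NT, siCTRL#1 changed 1 member, BMF (9.05% of all genes were called), or 2, with PMAIP1, without replicate 1. Between the non-targeting duplexes 2 members were called, MCL1 higher and BMF lower in siCTRL#2 (16.8% of all genes). BAX was 0.41 lower on the log2 scale in siCTRL#2, a change of -0.41 that was -0.61 and called without replicate 2.

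Each pair was then compared with each of its single silencings, which share a duplex with it. Single silencings also held 30 nM of siCTRL#1, which the pairs did not. A difference thus joins the loss of the other ATPase with the absence of siCTRL#1, and their shares were not tested. VPS4A itself was higher in the pairs than in their VPS4A single silencings, by 1.13 in siVPS4A+B#1 over siVPS4A#2 (limma adjusted p = 0.000107) and by 0.87 in siVPS4A+B#2 over siVPS4A#1 (limma adjusted p = 0.00527), so these comparisons also differ in the depth of silencing. siVPS4A+B#1 over siVPS4A#2 had 5 members called, all higher (23.5% of all genes): BAK1, BIK, BCL2L11, PMAIP1 and MCL1. siVPS4A+B#1 over siVPS4B#1 had 2, PMAIP1 and BIK, both higher (9.88% of all genes). siVPS4A+B#2 over siVPS4A#1 had 2, PMAIP1 higher and BMF lower (17.5% of all genes), or 1 with the library that was left out. siVPS4A+B#2 over siVPS4B#2 had 7, with BMF lower and BAK1, BIK, BCL2L11, BBC3, PMAIP1 and MCL1 higher (25.7% of all genes).

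PMAIP1 rose in all 4 of these, by 1.32, 1.52, 1.13 and 1.89 on the log2 scale in the order given, with every doubly silenced library above every singly silenced one and limma adjusted p of at most 5.84e-06. The value of 1.13 was 0.87 (limma adjusted p = 0.00303) with the library that was left out. BIK rose by 1.00, 0.96 and 1.32 over siVPS4A#2, siVPS4B#1 and siVPS4B#2, and was 0.18 above siVPS4A#1, which was not called. BAK1 rose by 0.73 over siVPS4A#2 and by 1.17 over siVPS4B#2. It was 0.22 above siVPS4B#1 and 0.02 above siVPS4A#1, neither called. BBC3 in siVPS4A+B#1 over siVPS4B#1 was called by DESeq2 alone (0.59). MCL1 rose by 0.74 over siVPS4A#2 and by 1.45 over siVPS4B#2, and BCL2L11 by 0.77 and 0.75.

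Some of these calls were close to the threshold. That of BAK1 over siVPS4A#2 was 0.58 with scaling by library totals and 0.57 without replicate 1, both folds under 1.5. BMF was at -0.77 over siVPS4A#1 (limma adjusted p = 0.0248) and at -0.80 over siVPS4B#2 (limma adjusted p = 0.00907). The first call was lost without replicate 3 (-0.50), without the replicate block (-0.60) and with the library that was left out (-0.42). The second was lost without replicate 1 (-0.49) or replicate 3 (-0.74). BCL2L1 was at -0.53 in siVPS4A+B#1 against siVPS4A#2, not called, but at -0.62 and called without replicate 4, and at -0.68 with scaling by library totals.

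The interaction is the effect of a pair minus the sum of its single effects, each against siCTRL#1, on the log2 scale. In siVPS4A+B#1 cells 2 members had a called interaction, PMAIP1 and BIK, both higher (6.20% of all genes). In siVPS4A+B#2 cells 3 had one, PMAIP1 and MCL1 higher and BMF lower (18.3% of all genes), or 2 with the library that was left out. PMAIP1 exceeded the sum of the single effects by 1.42 (95% interval 0.94 to 1.90, limma adjusted p = 7.63e-05) and by 1.65 (1.17 to 2.12, limma adjusted p = 1.91e-06), the latter 1.42 with the library that was left out.

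For BAK1 the interaction was -0.01 (95% interval -0.40 to 0.38) in siVPS4A+B#1 cells and -0.14 (-0.53 to 0.25) in siVPS4A+B#2 cells. Its level in doubly silenced cells was thus close to the sum of the single effects, within these intervals. For BIK it was 1.00 (95% interval 0.48 to 1.51, limma adjusted p = 0.0106) in siVPS4A+B#1 cells, or 0.89 (limma adjusted p = 0.102) without replicate 3, and 0.02 (95% interval -0.49 to 0.53) in siVPS4A+B#2 cells. For BMF it was -1.86 in siVPS4A+B#2 cells (limma adjusted p = 0.000119), where both single silencings had raised it.

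The interaction of MCL1 in siVPS4A+B#2 cells, 0.61 (limma adjusted p = 0.0344), did not hold under several alternatives. It was 0.48 without replicate 1, 0.39 without replicate 3, 0.53 without the siCTRL#1 library of replicate 4 and 0.47 with scaling by library totals. It was 0.61 (limma adjusted p = 0.0558) with the library that was left out, 0.60 (limma adjusted p = 0.103) when only the compared conditions were fitted and 0.58 (limma adjusted p = 0.044), a fold under 1.5, with a filter at a mean of 10 reads. That of BAX in the same cells was -0.58 and not called, but -0.90 without replicate 4 and -0.73 with scaling by library totals, both called.

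**Figure D3:**
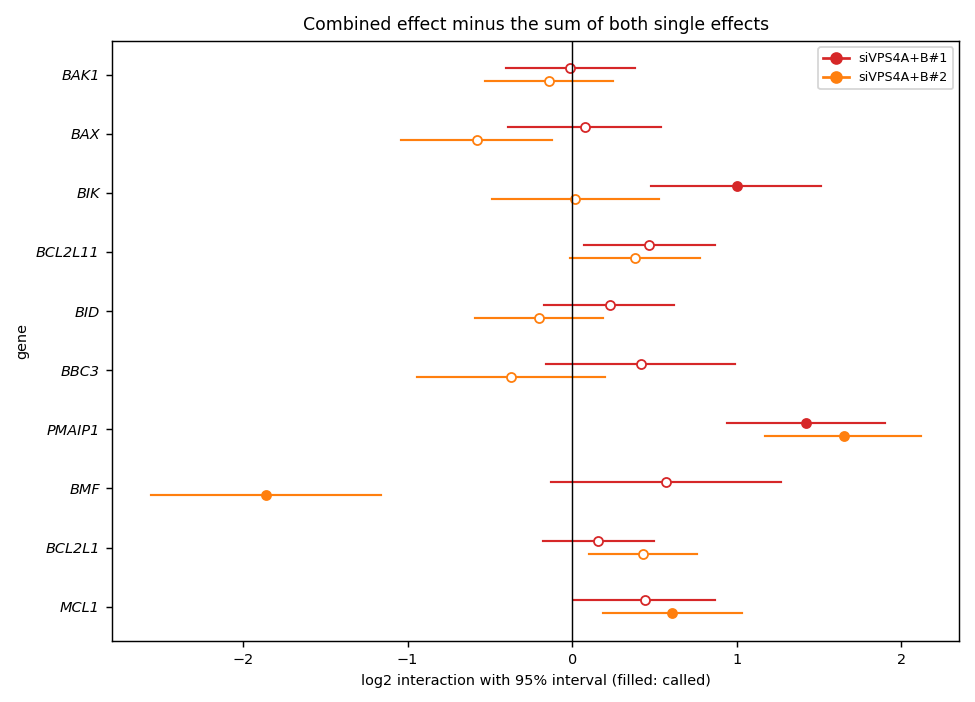
Interaction of both silencings on the log2 scale for each BCL2 family gene, with its 95% interval from limma, for siVPS4A+B#1 (red) and siVPS4A+B#2 (orange), and filled points for called values. PMAIP1 is at 1.42 and 1.65, above 0 in both pairs, and BAK1 is at -0.01 and -0.14.

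Duplexes against the same target were compared directly, which shows how far a member's change depends on the duplex. Between the pairs 4 members were called, BAX, BBC3, BMF and BCL2L1, all higher in siVPS4A+B#2 (17.4% of all genes). Between the VPS4A duplexes 6 were called, BAK1, BAX, BIK, BBC3, BMF and MCL1, all lower with siVPS4A#2 (22.2% of all genes). The count was 6 as well with the library that was left out. Between the VPS4B duplexes 3 were called, BBC3 and BMF higher and MCL1 lower with siVPS4B#2 (15.1% of all genes).

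PMAIP1 differed by -0.06 between the pairs (95% interval -0.40 to 0.29), the smallest difference of the 10. BCL2L11 differed by 0.07 (95% interval -0.21 to 0.36). BAK1 and BIK were 0.37 and 0.51 higher in siVPS4A+B#2, folds of 1.29 and 1.42 that were not called, though BIK was at 0.72 and called without replicate 1. BCL2L1 differed by 0.79 (limma adjusted p = 2.22e-06, the lowest of the 10), with libraries from 333 to 404 in siVPS4A+B#1 and from 529 to 760 in siVPS4A+B#2.

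Between the VPS4A duplexes the differences were -1.69 for BMF, -1.34 for BIK, -1.08 for BAK1, -1.03 for BBC3, -0.93 for BAX and -0.73 for MCL1, the last -0.56 and not called without replicate 4. For each of these 6 genes all siVPS4A#2 libraries were below all siVPS4A#1 libraries. They were named here because they were called, and the share of all genes so separated was not determined. VPS4A itself was 1.45 higher with siVPS4A#2 (limma adjusted p = 5.37e-06), and whether that has a part in these differences was not tested. PMAIP1 was at -0.14 between these duplexes, not called.

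Between the VPS4B duplexes BMF differed by 1.77, BBC3 by 0.74 and MCL1 by -0.61. BBC3 was at 0.55 and not called without replicate 2, and MCL1 at -0.55 and -0.48 and not called without replicates 3 and 4. BAK1 was at -0.58, a fold just under the threshold, and was called without replicate 1 (-0.63), without replicate 3 (-0.59) and by DESeq2 (-0.60) and edgeR (-0.59). BCL2L1 was 0.52 higher with siVPS4B#2, not called, but 0.63 and called without replicate 4.

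**Figure D4:**
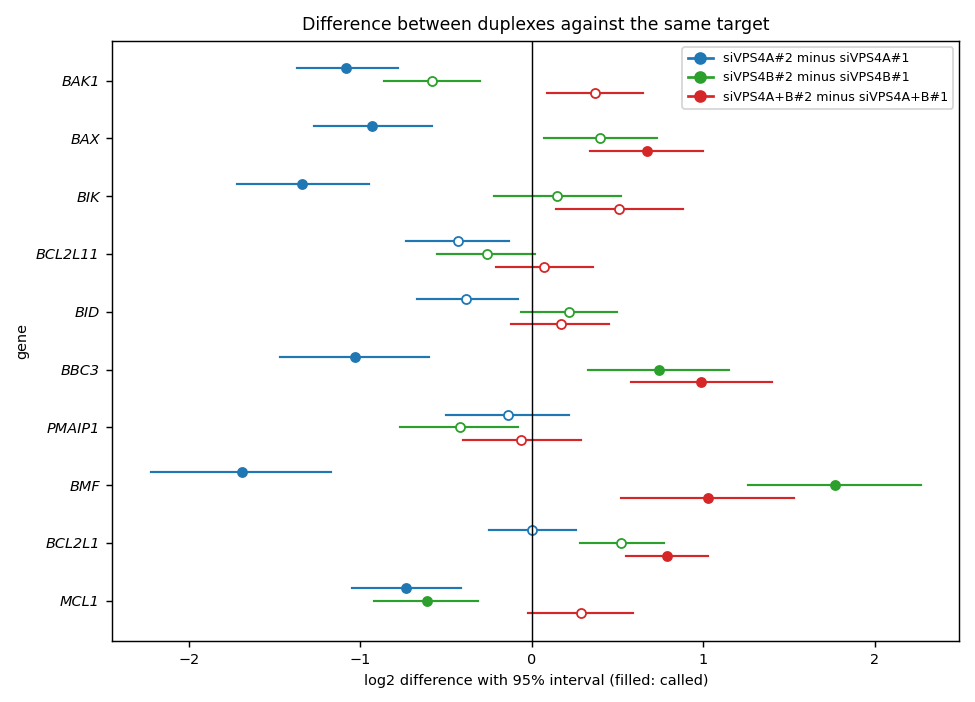
Log2 difference between duplexes against the same target for each BCL2 family gene, with its 95% interval from limma, for the VPS4A duplexes (blue), the VPS4B duplexes (green) and the pairs (red), and filled points for called values. 6 genes are called lower with siVPS4A#2 than with siVPS4A#1, from -0.73 to -1.69, and PMAIP1 is called in none of the 3 comparisons.

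Over the 37 libraries the members varied together to different degrees, given here as descriptions on the log2 scale. Each value spans all 9 conditions and so includes the differences between them, whose share of this variation was not tested. BIK and BCL2L11 had a Pearson r of 0.74, BAK1 and BIK 0.71, and BCL2L11 and PMAIP1 0.70. BAX and BBC3 had 0.71, and BAX and BMF 0.70. BBC3 had 0.65 with BIK and 0.62 with BAK1. PMAIP1 and BMF had 0.10. BCL2L1 ran weakly opposite to BCL2L11 (-0.35) and BAK1 (-0.34).

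The genes whose pattern was most like a member's were sought among 9508 genes with a mean of at least 5 RPM. For PMAIP1 they were DUSP8 (r = 0.929), RELB (0.909) and TRIO (0.909). For BAK1 they were CDKN1A (0.883), MVP (0.88) and GGT1 (0.88). For BIK they were CDC42SE1 (0.89), TRAF4 (0.862) and RAP2B (0.855), and for BCL2L11 they were HELZ2 (0.889), FASN (0.867) and ZNFX1 (0.855).

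Other genes of the pathway were described from lists. In the rest of the BCL2 family 12 of 15 genes were measured, without BCL2A1, BCL2L10 and BCL2L14. None was called in the same direction in all 4 comparisons of double silencing with NT and siCTRL#1. The number called in those 4 was 2, 1, 3 and 4, beside 26.0%, 22.1%, 28.8% and 28.7% of all genes. BCL2L2, a guardian, was at 0.96 and 1.04 in siVPS4A+B#2 cells and at 0.01 and 0.09 in siVPS4A+B#1 cells. BCL2, the guardian that names the family, was at -0.90 and -0.61 against siCTRL#1 and at -0.39 and -0.10 against NT, the latter not called. HRK, a BH3-only gene, was at 0.76 and 0.74 in siVPS4A+B#2 cells and at -0.34 and -0.36 in siVPS4A+B#1 cells, the latter not called.

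All 16 apoptosome and mitochondrial apoptosis factors were measured, and none was called in all 4. The number called was 3, 5, 2 and 2, where 26.0%, 22.1%, 28.8% and 28.7% of all genes were called. XIAP, an inhibitor of apoptosis, had a mean change of 0.84 and was called in 3 of the 4. APAF1, the scaffold of the apoptosome, had a mean change of -0.51 and was called in siVPS4A+B#1 cells only.

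Of 16 transcription factors known to act on genes of the family, 3 were called higher and 2 lower in all 4, beside 3.96% and 4.16% of all genes. The number called was 9, 8, 8 and 11, beside 26.0%, 22.1%, 28.8% and 28.7% of all genes. RELB, a subunit of NF-kB, had a mean change of 2.60, from 19 ± 2.79 RPM in NT cells to 123 ± 23.7 in siVPS4A+B#1 and 116 ± 12.9 in siVPS4A+B#2 cells (SD, n = 4 each). ATF3, a stress-induced factor, had a mean change of 1.96, and NFKB2, the precursor of the p52 subunit of NF-kB, one of 1.86. TP73, a relative of p53, fell by 1.38 on average, and E2F1, a driver of S phase, by 1.16. RELB was also among the genes most like PMAIP1 over the libraries.

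Of 14 regulators of MCL1, BIM, BIK and BID protein, all measured, none was called in all 4. The number called was 2, 1, 3 and 3, beside 26.0%, 22.1%, 28.8% and 28.7% of all genes. DYNLL2, the dynein light chain that holds BMF, had a mean change of -0.90 and was called lower in 3 of the 4. CASP8, which cuts BID, had a mean change of 0.76 and was called higher in 3. BTRC, a ubiquitin ligase subunit, had one of 0.51 and was called in 1.

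Markers of other cell types also moved. CD68, the 1 leukocyte marker listed of 6, rose in all 4 comparisons with a mean change of 3.44, from 6.17 ± 0.879 RPM in NT cells to 136 ± 35.7 in siVPS4A+B#1 and 57.7 ± 25.4 in siVPS4A+B#2 cells (SD, n = 4 each). It was also called higher in siVPS4B#1 cells, at 21.8 ± 2.7 (SD, n = 4), by 1.67 against NT and 1.36 against siCTRL#1. The fibroblast and endothelial markers, 3 of 6 listed, summed to 13.6 ± 3.3 in NT cells (SD, n = 4) and 26.7 ± 6.55 in siCTRL#1 cells (SD, n = 5). Their sum was 47.6 ± 13.4 in siVPS4A#1 cells, 33.8 ± 8.36 in siVPS4A+B#1 cells and 63.2 ± 15.8 in siVPS4A+B#2 cells (SD, n = 4 each). COL1A1, the most abundant of them, had a mean change of 1.33 and was called in 3 of the 4, PDGFRB one of -0.27 and PECAM1 one of 0.02, neither called. The epithelial markers summed to 5320 ± 1030 in siCTRL#1 cells (SD, n = 5), 7590 ± 608 in siVPS4A+B#1 cells and 5640 ± 299 in siVPS4A+B#2 cells (SD, n = 4 each). KRT19 had a mean change of 0.88 and was called in 3. EPCAM had one of -0.21, with a range from -0.84 to 0.43, and was called lower in siVPS4A+B#1 against NT. CDH1 had one of -0.38, with a range from -0.55 to -0.21 and no value past the fold threshold. Their part in the results of the BCL2 family was not tested.

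Promoters were available in RefSeq for 8 of the 10 members, 14 promoters in all, and BIK and MCL1 had none. Apart from the matches shown in the sequences, the letters TGACG were found in the promoters of BMF, BAX and BCL2L1, 57, 134 and 201 bases before the start. The E-box CACGTG (in 7.26% of all promoters) was found at 4 places of the BAX promoter, once in that of BBC3 and in 2 overlapping windows of BID. The AP-1 motif TGANTCA (7.71%) was found in the BBC3 promoter. The NF-kB motif, searched as a 10-letter pattern (5.91%), was found in that of BMF, 20 bases before the start. The full CRE, TGATGNAA (the C/EBP and ATF element, 3.62%), TTTGGCGC (E2F, 0.652%) and TTCNNNGAA (STAT3, 7.66%) were in none of the 14. These letters describe the windows and carry no statement about the factors.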

How the data were processed

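RNA of 38 HCT116 libraries was read with the AmpliSeq transcriptome panel on Ion Proton and counted by the authors with HTSeq 0.6.0 on hg19. The deposited values are a signal in shares of a library's reads, each library summing to 1. The file holds no comparison columns. Whole reads were recovered from each library's smallest step: 47.4% of values could be placed within 0.1 read, and 100% of these were whole. 1 library, labelled siVPS4A#1 replicate 2, was left out for its low depth and its VPS4B level, and the 37 used held 5090666 to 11035293 reads. Symbols came from RefSeq ids (12474 matched, 153 did not).

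Because the file holds shares, the test was limma 3.58.1 (trend) in R 4.3.3 on log2 of TMM RPM plus 1 (factors 0.881 to 1.1 from edgeR 4.0.16), with replicate number, which equals the batch label, as a block. After each gene's condition mean was subtracted, what remained correlated more between libraries of 1 replicate number than between others. The mean r of these residuals was 0.185 over 137 pairs against -0.082 over 529 (9569 genes). Adjustment was by Benjamini-Hochberg over all genes in each of 23 comparisons, and none was filtered out. The comparisons of the pairs with siCTRL#2 were made besides these and were not run under the alternatives. The procedure was tested on simulated data. Alternatives were DESeq2 1.42.0 and edgeR quasi-likelihood, library totals, DESeq2 size factors, a pseudocount of 0.1, a mean of at least 10 reads, no block, only the compared conditions, other thresholds, the left-out library and leaving out each replicate. Python 3.11.15, numpy 2.4.6, pandas 2.3.3 and matplotlib 3.10.9 were used for tables and figures.

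The members and lists were chosen with earlier results of these data known. Named genes were the 10 members, both targets, from each list those called in all 4 comparisons of double silencing with NT and siCTRL#1 and up to 3 with the largest mean absolute change, and the 3 genes most like each member called in all 4. Gene positions are from the GRCh37 annotation. Promoters (RefSeq, GRCh38.p14) were searched for the motifs on both strands.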

Additional observations from a re-analysis of the deposited data

Results flagged for a closer look

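In 4 of 90 groups of libraries, 1 library stood apart relative to the spread of the others of its condition; chance alone gives about 1 in 20 groups. BAX in siVPS4A+B#2 replicate 2 was at 116 RPM, beside 142 to 144. BIK in siCTRL#2 replicate 1 was at 10.4, beside 18.3 to 19.9. PMAIP1 in siVPS4A#1 replicate 4 was at 315, beside 191 to 212. MCL1 in siCTRL#2 replicate 2 was at 107, beside 105 to 106, a small step in a group with an SD of 0.738.

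Duplexes against the same target differed in 13 direct limma comparisons, given as log2 differences. Between the pairs, siVPS4A+B#2 minus siVPS4A+B#1 was 0.67 for BAX (adjusted p = 0.00166), 0.99 for BBC3 (0.00025), 1.03 for BMF (0.00159) and 0.79 for BCL2L1 (2.22e-06). siVPS4A#2 minus siVPS4A#1 was -1.08 for BAK1 (adjusted p = 1.46e-07), -0.93 for BAX (3.76e-05), -1.34 for BIK (4.13e-07), -1.03 for BBC3 (0.000181), -1.69 for BMF (1.83e-06) and -0.73 for MCL1 (0.000347). siVPS4B#2 minus siVPS4B#1 was 0.74 for BBC3 (adjusted p = 0.00609), 1.77 for BMF (1.1e-06) and -0.61 for MCL1 (0.0023).

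The library that was left out, labelled siVPS4A#1 replicate 2, lay above every NT and siCTRL#1 library for the members named next, in RPM. The share of all genes outside the range of those libraries was not determined. With 669257 reads in this library, the values are given as a description only. BAK1 was at 56.6, beside 22.1 to 48.1 in those controls. BIK was at 32.4, beside 13.9 to 26.8. BBC3 was at 21, beside 11.1 to 19.3. PMAIP1 was at 579, beside 103 to 218. MCL1 was at 120, beside 51.3 to 89.1. It lay below all of those libraries for BCL2L1, at 359 beside 594 to 748, and for BID, at 11.3 (7 reads) beside 16.9 to 29.1.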

How the results depend on the processing

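No called value of the 10 members in the 23 comparisons, which leave out those of the pairs with siCTRL#2, changed direction under any alternative tried. Of 3450 values, 3380 stayed on their side of the threshold, 40 lost the call and 30 gained it, and 79 values not called in either fit changed sign. The 4 members called higher in all 4 comparisons of double silencing were 4 under each alternative but 4: scaling by library totals (3), an adjusted p alone (5), and the stricter thresholds below (1 each). Of all 12627 genes, 500 were higher in all 4 in the main fit. That number was 358 with library totals, 908 with an adjusted p alone, 148 with treat and 177 with a fold of at least 2. For each comparison under the other thresholds the share of all genes was not determined, so the counts below describe the members only. With limma's treat at a fold of 1.5, the members called became 3 in siVPS4A+B#1 minus NT, 1 in siVPS4A+B#1 minus siCTRL#1, 3 in siVPS4A#1 minus siCTRL#1, 0 in siVPS4A#2 minus NT, 1 in siVPS4B#1 minus NT, 0 in siVPS4B#1 minus siCTRL#1, 1 in siVPS4B#2 minus NT, 0 in siVPS4B#2 minus siCTRL#1, 0 in siCTRL#2 minus siCTRL#1, 1 in siVPS4A+B#1 minus siVPS4A#2, 1 in siVPS4A+B#1 minus siVPS4B#1, 0 in siVPS4A+B#2 minus siVPS4A#1, 4 in siVPS4A+B#2 minus siVPS4B#2, 0 for the interaction in siVPS4A+B#1, 0 in siVPS4A+B#2 minus siVPS4A+B#1, 3 in siVPS4A#2 minus siVPS4A#1, 1 in siVPS4B#2 minus siVPS4B#1 and 1 in all 4 comparisons. With a fold of at least 2 they became 1 in siVPS4A+B#1 minus siCTRL#1, 1 in siVPS4A#2 minus NT, 1 in siVPS4B#1 minus NT, 0 in siVPS4B#1 minus siCTRL#1, 1 in siVPS4B#2 minus NT, 1 in siCTRL#2 minus siCTRL#1, 2 in siVPS4A+B#1 minus siVPS4A#2, 1 in siVPS4A+B#1 minus siVPS4B#1, 1 in siVPS4A+B#2 minus siVPS4A#1, 4 in siVPS4A+B#2 minus siVPS4B#2, 1 for the interaction in siVPS4A+B#1, 1 in siVPS4A+B#2 minus siVPS4A+B#1, 1 in siVPS4B#2 minus siVPS4B#1 and 1 in all 4 comparisons. With an adjusted p alone they became 4 in siVPS4A#2 minus NT, 5 in siVPS4B#2 minus NT, 2 in siVPS4B#2 minus siCTRL#1, 3 in siCTRL#1 minus NT, 6 in siCTRL#2 minus siCTRL#1, 4 in siVPS4A+B#1 minus siVPS4B#1 and 5 in siVPS4B#2 minus siVPS4B#1. In siVPS4A+B#2 minus siVPS4A#1 the count was 1 with no replicate block and 1 with siVPS4A#1 replicate 2, and in siCTRL#1 minus NT it was 2 with scaling by library totals. Over the fits that leave out a replicate or the siCTRL#1 library of replicate 4, the count ran from 1 to 4 in siVPS4B#1 minus NT, 3 to 5 in siVPS4B#2 minus NT, 1 to 2 in siVPS4B#2 minus siCTRL#1, 1 to 2 in siCTRL#1 minus NT, 1 to 2 in siVPS4A+B#2 minus siVPS4A#1 and 1 to 2 for the interaction in siVPS4A+B#1. These lists leave out smaller moves. With a fold of at least 2, for example, the count went from 6 to 4 in siVPS4A+B#1 minus NT. In siVPS4A+B#2 minus NT it went from 8 to 6, as also with treat. The shifts under the thresholds follow from their construction, and for the others the cause was not tested. Depth limits the lowest member most: BMF had as few as 32 reads in an NT library.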
